A study of Mus musculus with 2 samples.

Results

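The genes described here are 31 enzymes and regulators of cholesterol and fatty acid synthesis, chosen by symbol among the 31053 genes of the deposited matrices and found in both libraries. They were followed in subcutaneous tumours of MC38, a mouse colon carcinoma line, taken apart into single cells and counted by droplet sequencing at the 3' end of each transcript. There was 1 library of tumours that overexpress UBD, a ubiquitin-like modifier also called FAT10, and 1 library of control tumours. Both libraries share the cell line, the subcutaneous site and the kit, and the sources name neither the mouse strain, age, sex or vector nor how many animals went into each library. The samples carry the tissue label xenograft, although MC38 is itself a mouse line. The genes split into a sterol arm of 18 enzymes with 3 genes that control or serve it (Srebf2, Insig1 and Stard4), a fatty acid arm of 8 enzymes, and 2 genes described apart (Srebf1 and Aacs).

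Cholesterol is built from acetyl-CoA through mevalonate, farnesyl diphosphate, squalene and lanosterol, and the same acetyl-CoA is made into palmitate and then into longer and unsaturated fatty acids. The transcription factors SREBP2, encoded by Srebf2, and SREBP1, encoded by Srebf1, switch these genes on when sterols in the endoplasmic reticulum are low; INSIG1 holds the precursors back when sterols are high. Dividing cells draw on both arms for membrane, and macrophages both make cholesterol and take it up from debris.

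Promoters are shown first because SREBP is known to act on these genes together with factors that bind CCAAT boxes and GC boxes. The 250 bases upstream of the RefSeq start (GRCm38.p6) could be read for 24 of the 31 genes, and Fdps, Fdft1, Sqle, Stard4, Scd1, Scd2 and Fads1 were not analysed here. A search was made on both strands for the sterol element TCACNCCAC, the E-box CACGTG, the CCAAT box and the GC box GGGCGG, none of which holds another of the 4. The 4 windows below were picked to show the sterol element, the E-box, a promoter dense in CCAAT boxes and one with none. Capitals mark TCACNCCAC, CACGTG and CCAAT on either strand (ATTGG is CCAAT on the other strand), GC boxes are left in lower case, and each line runs 5′ to 3′ toward the start site.
Hmgcs1: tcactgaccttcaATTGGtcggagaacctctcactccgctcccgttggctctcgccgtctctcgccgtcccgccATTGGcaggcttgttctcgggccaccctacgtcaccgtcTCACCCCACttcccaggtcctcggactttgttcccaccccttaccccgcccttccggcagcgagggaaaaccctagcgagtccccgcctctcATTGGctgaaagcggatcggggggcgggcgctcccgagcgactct
Mvk: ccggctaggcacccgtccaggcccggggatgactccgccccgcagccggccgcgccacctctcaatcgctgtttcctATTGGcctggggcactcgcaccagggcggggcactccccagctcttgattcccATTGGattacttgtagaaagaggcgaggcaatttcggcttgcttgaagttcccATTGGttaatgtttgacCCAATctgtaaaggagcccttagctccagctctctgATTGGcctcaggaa
Insig1: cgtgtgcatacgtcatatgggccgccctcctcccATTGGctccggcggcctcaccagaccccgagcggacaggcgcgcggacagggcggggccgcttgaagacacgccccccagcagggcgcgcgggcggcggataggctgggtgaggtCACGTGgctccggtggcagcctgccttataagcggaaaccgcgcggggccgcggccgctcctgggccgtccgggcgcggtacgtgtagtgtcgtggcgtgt
Acat2: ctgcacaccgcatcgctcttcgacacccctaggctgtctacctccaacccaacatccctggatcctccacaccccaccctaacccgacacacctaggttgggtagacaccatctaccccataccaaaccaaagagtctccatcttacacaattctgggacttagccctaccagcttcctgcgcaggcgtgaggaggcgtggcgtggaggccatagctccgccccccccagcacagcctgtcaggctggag

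The Hmgcs1 window (chr13:119690101-119690350, plus strand) was the one member window with TCACNCCAC, beside 1.04% of all promoters, at TCACCCCAC 137 bases before the start, and it held 3 CCAAT boxes. The Mvk window (chr5:114444019-114444268, plus strand) held 5 CCAAT boxes. The Insig1 window (chr5:28071162-28071411, plus strand) held CACGTG and 1 CCAAT box, and the Acat2 window (chr17:12960726-12960975, minus strand) held neither. A CCAAT box stood in 13 of 15 sterol arm windows and in 17 of 24 member windows, which is 70.8%, beside 34.5% of all 27025 promoters and 36.7% of the 9866 promoters of genes measured in the tumour cells. A GC box stood in 14 of 15 sterol arm windows and in 75% of member windows, beside 32.9% of all promoters and 59.4% of those of measured genes. In the fatty acid arm, 1 of 5 windows had a CCAAT box (Fasn) and 2 of 5 a GC box (Acly and Fads2). CACGTG was found upstream of Hsd17b7, Sc5d and Insig1, beside 6.05% of all promoters. Over the 24 members with a window, the median log2 ratio of UBD over control in tumour cells was 0.47 with a CCAAT box and 0.55 without, and 0.57 with a GC box and 0.01 in the 6 without, while over all measured genes it was -0.02 with a GC box and -0.04 without. Of the 18 members with a GC box, 14 were sterol enzymes, and the 6 without were Pmvk, Acaca, Fasn, Elovl6, Srebf1 and Aacs. The members with and without a GC box thus differ in arm. Over all its members, each arm had a median log2 ratio of 0.57 in tumour cells. A part of the motif or of the arm in the difference was not tested. A match of letters is a description and not a binding site.

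UMIs (unique molecular identifiers) count RNA molecules. Filtering left 13057 cells in the UBD library, at a median of 12186 UMIs, and 13823 in the control library, at a median of 4334. The libraries shared 71 cell barcodes. Cells were put into classes by marker UMIs, and the tumour class (Cdkn2a) held 4956 UBD and 3018 control cells. The macrophage class (C1qa) held 1748 UBD and 2187 control cells, the osteoclast-like class (Acp5 with Ctsk) 694 UBD and 110 control cells, the T class (Cd3e) 391 UBD and 360 control cells, the fibroblast class (Dcn) 172 UBD and 144 control cells, and the dendritic class (Flt3) 45 UBD and 85 control cells. The 4 Y-linked genes that mark host cells summed to 0.629 CPM in UBD and 3.05 CPM in control tumour cells, against 55.0 to 166 CPM in the host classes. Ubd itself was low, at 1.47 CPM (140 UMIs) in UBD tumour cells and 0.477 CPM (26 UMIs) in control tumour cells, and the sources do not say whether a 3' count would catch the introduced sequence. The submitters' design text speaks of goblet cells, and the 6 goblet markers summed to 0.0524 CPM in UBD and 0.312 CPM in control tumour cells. The 5 markers of adipocytes, which also make fatty acids, summed to 0.0734 CPM in UBD and 0.550 CPM in control tumour cells, with Plin1, Cidec and Lep at 0 UMIs in both. RNA quality differed too, with Gm42418, which collects ribosomal RNA reads, at 1051 CPM in UBD and 4136 CPM in control tumour cells, and with 9 dissociation stress genes at 5837 CPM in UBD and 10951 CPM in control. Gm42418 was lower in UBD in the other 5 classes too, by 2.32-fold in T cells to 4.45-fold in fibroblasts. The part of these differences in the results below was not tested.

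CPM below is the usual scaling of a gene's UMIs by the total, here the total over all cells of the class in the library. With 1 library per group there is no replicate and no test. Every interval of a level or ratio is a 95% interval of counting error alone. The interval of an arm's median is taken over its members and gives their spread, not counting error. A difference between the libraries cannot be told apart from one between 2 tumours or 2 preparations. Counts at transcript 3' ends are not divided by gene length, so levels are compared between libraries and not between genes. A ratio is UBD over control. Counts and medians cover genes with at least 50 UMIs over both libraries, a minimum met more easily by a gene that is high in 1 of them, so below they describe only the members measured.

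In tumour cells, all 18 sterol enzymes had a ratio above 1, and the arm as a whole was at 965 CPM in UBD cells and 640 CPM in control cells. The median log2 ratio of the arm was 0.57 (0.43 to 0.72 over its members), while that of all 13029 genes measured was -0.05. At least 1.5-fold higher were 8 of 18, beside 8.69% of all genes measured, and none was 1.5-fold lower, beside 19.3% of all genes. The difference was largest in the first stretch, from acetoacetyl-CoA to farnesyl diphosphate, where 5 of 7 enzymes passed 1.5-fold and the median log2 ratio was 0.71.

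Acat2, the cytosolic thiolase that makes acetoacetyl-CoA, was at 35.4 CPM in UBD and 17.9 CPM in control tumour cells, a ratio of 1.98 (1.84 to 2.12). Hmgcs1, which adds the next acetyl unit to give HMG-CoA, was at 99.1 CPM in UBD and 65.8 CPM in control cells, a ratio of 1.51 (1.45 to 1.57). Mvk, the mevalonate kinase, was at 15.0 CPM in UBD and 14.7 CPM in control cells, a ratio of 1.02 (0.931 to 1.11) with 5 CCAAT boxes in its window. Pmvk, the kinase after it, was at 60.4 CPM in UBD and 43.8 CPM in control cells, a ratio of 1.38 (1.32 to 1.45). The 2 kinases of the pathway were thus the members of this stretch below 1.5-fold, and every enzyme after them in it was above. Mvd, the decarboxylase that makes isopentenyl diphosphate, was at 28.4 CPM in UBD and 17.3 CPM in control cells, a ratio of 1.64 (1.52 to 1.77). Idi1, the isomerase of that product, was at 65.8 CPM in UBD and 35.7 CPM in control cells, a ratio of 1.84 (1.75 to 1.94). Fdps, which joins these units to farnesyl diphosphate for sterols and for protein prenylation, was at 174 CPM in UBD and 101 CPM in control cells, a ratio of 1.72 (1.67 to 1.77).

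The stretch from farnesyl diphosphate to lanosterol commits carbon to sterols, and none of its 3 enzymes passed 1.5-fold in tumour cells. Fdft1, the squalene synthase, was at 45.6 CPM in UBD and 34.4 CPM in control cells, a ratio of 1.32 (1.25 to 1.40). Sqle, the squalene epoxidase and a rate-limiting step, was at 49.6 CPM in UBD and 41.9 CPM in control cells, a ratio of 1.18 (1.13 to 1.24), and its log2 ratio was -0.10 among tumour cells with no UMI of the division genes Top2a and Mki67. Lss, which closes the sterol rings, was at 9.05 CPM in UBD and 6.51 CPM in control cells, a ratio of 1.39 (1.23 to 1.58). All 3 intervals lay above 1, and the median log2 ratio of the stretch was 0.41.

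From lanosterol to cholesterol, 3 of 8 enzymes passed 1.5-fold in tumour cells and the median log2 ratio was 0.57. Cyp51, the lanosterol demethylase, was at 106 CPM in UBD and 58.2 CPM in control cells, a ratio of 1.83 (1.76 to 1.90). Nsdhl, an X-linked dehydrogenase that removes carbon from the methyl sterol, was at 26.6 CPM in UBD and 16.1 CPM in control cells, a ratio of 1.65 (1.53 to 1.78). Sc5d, a sterol desaturase, was at 30.3 CPM in UBD and 19.9 CPM in control cells, a ratio of 1.53 (1.42 to 1.64). The other enzymes of the stretch stayed below 1.5-fold. Msmo1, the sterol methyl oxidase, was at 106 CPM in UBD and 72.5 CPM in control cells, and Dhcr7, a final reductase, was at 16.5 CPM in UBD and 11.3 CPM in control cells, each with a ratio of 1.46. Hsd17b7, the keto-sterol reductase, was at 27.9 CPM in UBD and 20.6 CPM in control cells, a ratio of 1.35 (1.26 to 1.45). Ebp, the sterol isomerase, was the nearest to equal, at 67.9 CPM in UBD and 60.9 CPM in control cells with a ratio of 1.12 (1.07 to 1.16). Tm7sf2, a sterol reductase whose reaction the lamin B receptor can also carry out, rested on 110 UBD and 42 control UMIs, and its ratio of 1.5 (1.04 to 2.19) fell just under the limit before rounding.

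The 3 genes that control or serve the sterol arm were all above 1 and within 1.5-fold in tumour cells. Srebf2, the precursor of SREBP2, was at 58.7 CPM in UBD and 53.2 CPM in control tumour cells, a ratio of 1.10 (1.05 to 1.15). Insig1, the sterol-sensing brake and itself a known SREBP target, was at 68.5 CPM in UBD and 52.4 CPM in control cells, a ratio of 1.31 (1.25 to 1.37). Stard4, a carrier that moves cholesterol between membranes, was at 24.3 CPM in UBD and 17.2 CPM in control cells, a ratio of 1.41 (1.31 to 1.53).

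**Figure D1:**
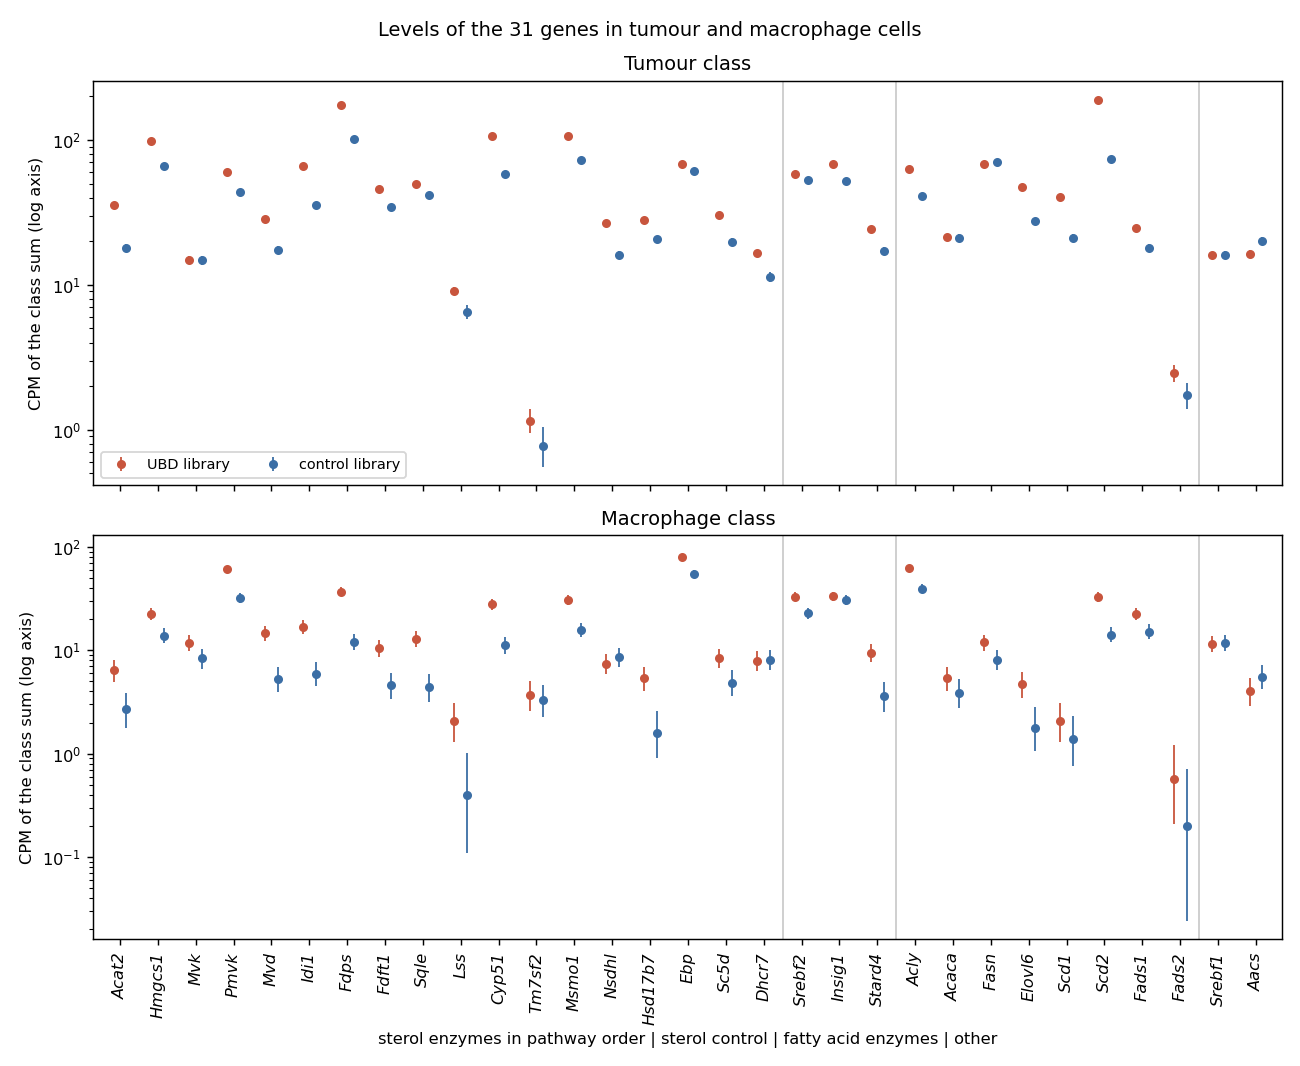
Level of each of the 31 genes in tumour cells (top) and macrophages (bottom), in CPM of the class sum on a log axis; each gene has the UBD library on the left (red) and the control library on the right (blue), with 95% counting intervals as bars. In tumour cells all 18 sterol enzymes lie higher in UBD, Fasn and Aacs lie lower, and the intervals widen for rare genes such as Tm7sf2 and Fads2.

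The fatty acid arm summed to 456 CPM in UBD and 276 CPM in control tumour cells, and the median ratio was higher over the enzymes that lengthen and desaturate fatty acids than over those that make palmitate. Its median log2 ratio was 0.57 (-0.05 to 1.34 over the 8 members), 7 of 8 were above 1, and 4 passed 1.5-fold, beside 8.69% of all genes measured. From acetyl-CoA to palmitate the median log2 ratio was 0.01 and 1 of 3 enzymes passed, and in elongation and desaturation it was 0.78 and 3 of 5 passed. The desaturase gene Scd2 alone made up 41.2% of the summed arm in UBD and 26.9% in control tumour cells.

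Acly, which frees acetyl-CoA from citrate for both arms, was at 63.4 CPM in UBD and 41.0 CPM in control tumour cells, a ratio of 1.55 (1.47 to 1.62). Acaca, the acetyl-CoA carboxylase that commits carbon to fat, was at 21.4 CPM in UBD and 21.2 CPM in control cells, a ratio of 1.01 (0.936 to 1.08). Fasn, the fatty acid synthase, was at 68.2 CPM in UBD and 70.8 CPM in control cells, a ratio of 0.963 (0.925 to 1.00). The carboxylase and the synthase were thus near equal in the 2 libraries, and the sign of both turned under other class rules. Elovl6, which lengthens palmitate to stearate, was at 47.3 CPM in UBD and 27.5 CPM in control cells, a ratio of 1.72 (1.62 to 1.83). Scd1, a desaturase that makes oleate, was at 40.5 CPM in UBD and 21.2 CPM in control cells, a ratio of 1.91 (1.79 to 2.04). Scd2, its paralogue, was at 188 CPM in UBD and 74.1 CPM in control cells, and its ratio of 2.54 (2.45 to 2.63) was the highest of the 31 genes in tumour cells. The 2 genes lie close together, Scd2 at chr19:44293674-44306864 on the plus strand and Scd1 at chr19:44394455-44407879 on the minus strand (GRCm38), and the sources do not say how reads that match both were counted. The adjacent desaturases of polyunsaturated fatty acids differed less, with Fads1 at 24.8 CPM in UBD and 18 CPM in control cells, a ratio of 1.38 (1.28 to 1.49). Fads2 was at 2.45 CPM in UBD and 1.72 CPM in control cells, a ratio of 1.42 (1.11 to 1.83).

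Srebf1, whose SREBP1 products drive the fatty acid arm, was at 16.2 CPM in UBD and 16.1 CPM in control tumour cells, a ratio of 1.00 (0.922 to 1.09). Aacs, which makes acetoacetyl-CoA from ketone bodies, was at 16.4 CPM in UBD and 20.2 CPM in control cells, a ratio of 0.813 (0.752 to 0.879), and it was the 1 member whose interval lay below 1 in tumour cells.

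With every cell thinned to 5000 UMIs, which left out 228 UBD and 884 control cells that were shallower, the sterol arm had a mean of 4.59 UMIs per cell in UBD and 2.93 in control. The median was 3.5 UMIs in UBD and 2 in control, and the upper decile began at 10 in UBD and 6 in control. The fatty acid arm had a mean of 2.25 UMIs in UBD and 1.34 in control cells at the same depth. Unthinned, the median cell had 6.90 sterol arm UMIs per 10000 in UBD and 4.51 in control.

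A further 3065 UBD and 2401 control cells met the limits of both Cdkn2a and Dcn and were kept out of the tumour class. Their Y-linked sum was 0.449 CPM in UBD and 1.59 CPM in control, close to those of the tumour class. In them the sterol arm was at 981 CPM in UBD and 676 CPM in control, with a median log2 ratio of 0.57 over 18 members, all above 1, and 8 passed 1.5-fold beside 7.63% of all genes measured. The fatty acid arm was at 424 CPM in UBD and 281 CPM in control, with a median log2 ratio of 0.42, and 3 of 8 passed. The median depth of these cells was 17595 UMIs in UBD and 28059 in control, the opposite order to the tumour class, with 16744 UMIs in UBD and 10476 in control.

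**Figure D2:**
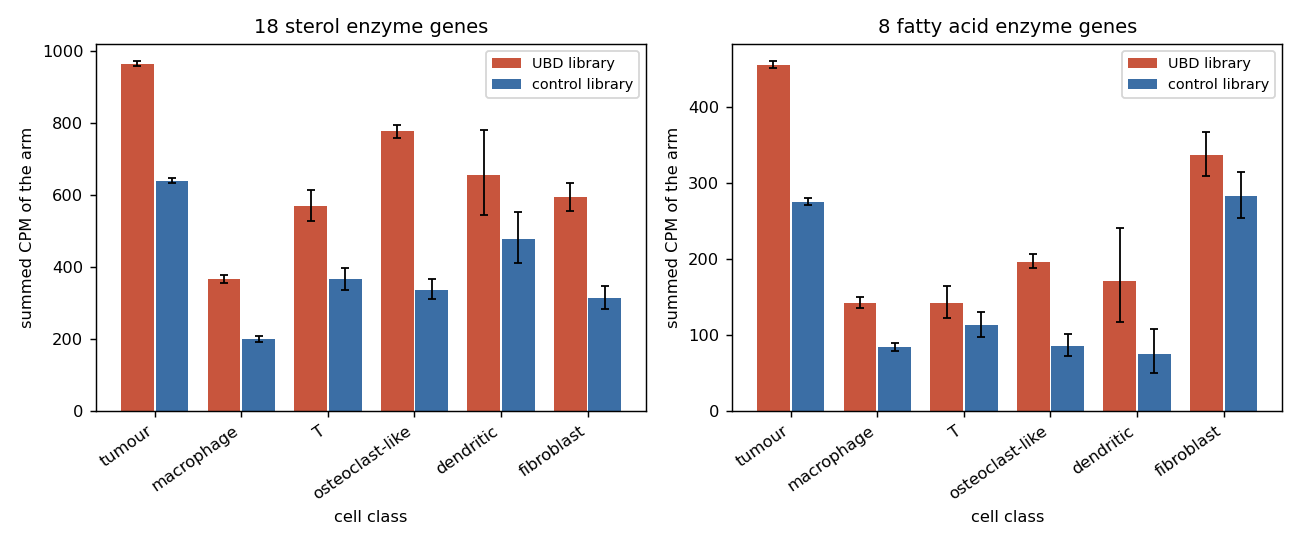
Summed CPM of the 18 sterol enzymes (left) and of the 8 fatty acid enzymes (right) in each cell class, with the UBD library as the left bar (red) and the control library as the right bar (blue) and 95% counting intervals. The UBD bar is the higher in all 6 classes for both arms, and the intervals overlap for the sterol arm in dendritic cells and for the fatty acid arm in T cells and fibroblasts.

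In macrophages the sterol arm was lower than in tumour cells in both libraries. It summed to 367 CPM in UBD and 199 CPM in control macrophages, with a median log2 ratio of 0.97 (0.54 to 1.48) over the 17 enzymes with at least 50 UMIs, while all 9888 genes measured had a median of -0.08. At least 1.5-fold higher were 12 of 17, beside 10.3% of all genes measured, and none was 1.5-fold lower, beside 19.1%. Of the 17 measured, 6 had under 50 UMIs in the control library alone and 1 in the UBD library alone. The interval of the median, taken over members, overlaps that of tumour cells, and the difference between the classes was not tested. Free RNA of lysed cells can enter any droplet. Cdkn2a reached 3.73% of its tumour level in UBD and 4.36% in control macrophages, and the level that tumour RNA alone would give at that share is set beside several members below. Cells that met the Cdkn2a limit were left out of every host class. The Cdkn2a share, here and in the other host classes, can therefore understate free tumour RNA, and so can the levels drawn from it.

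In the first stretch 6 of 7 enzymes passed 1.5-fold in macrophages. Fdps was at 36.8 CPM in UBD and 12 CPM in control macrophages, a ratio of 3.06 (2.49 to 3.78), where tumour RNA at the Cdkn2a share would give 6.5 CPM in UBD and 4.42 CPM in control. Idi1 was at 16.8 CPM in UBD and 5.96 CPM in control, a ratio of 2.82 (2.09 to 3.84), and Mvd at 14.6 CPM in UBD and 5.27 CPM in control, a ratio of 2.78 (2.02 to 3.87). Acat2 was at 6.38 CPM in UBD and 2.68 CPM in control, a ratio of 2.38 (1.5 to 3.87), on 68 UBD and 27 control UMIs. The intervals of Fdps, Idi1 and Mvd lay above those of tumour cells. Pmvk was at 60.6 CPM in UBD and 32.4 CPM in control, a ratio of 1.87 (1.64 to 2.15). Hmgcs1 was at 22.6 CPM in UBD and 13.9 CPM in control, a ratio of 1.63 (1.31 to 2.02), and Mvk at 11.7 CPM in UBD and 8.35 CPM in control, a ratio of 1.41 (1.06 to 1.88), the 1 enzyme of the stretch under the limit.

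Both squalene enzymes measured in macrophages passed 1.5-fold, which neither did in tumour cells. Sqle was at 13.0 CPM in UBD and 4.37 CPM in control macrophages, a ratio of 2.96 (2.10 to 4.26), where tumour RNA would give 1.85 CPM in UBD and 1.83 CPM in control. Fdft1 was at 10.5 CPM in UBD and 4.57 CPM in control, a ratio of 2.30 (1.62 to 3.32). Lss had 22 UBD and 4 control UMIs, too few for the ratios above.

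Of the 8 last steps, 4 passed 1.5-fold in macrophages and 2 had a ratio below 1. Hsd17b7 had the highest ratio of the class, 3.37 (1.91 to 6.28), on 57 UBD and 16 control UMIs, at 5.35 CPM in UBD and 1.59 CPM in control, where tumour RNA would give 1.04 CPM in UBD and 0.90 CPM in control. Cyp51 was at 27.8 CPM in UBD and 11.2 CPM in control, a ratio of 2.47 (1.99 to 3.1), Msmo1 at 31 CPM in UBD and 15.8 CPM in control, a ratio of 1.96 (1.62 to 2.38), and Sc5d at 8.35 CPM in UBD and 4.87 CPM in control, a ratio of 1.72 (1.20 to 2.48). These 4 passed the limit, and the other 4 did not. Nsdhl was at 7.41 CPM in UBD and 8.54 CPM in control, a ratio of 0.868 (0.631 to 1.19), and Dhcr7 at 7.88 CPM in UBD and 8.15 CPM in control, a ratio of 0.968 (0.705 to 1.33) that turned above 1 under both other scalings of the class sums. Ebp was at 80.4 CPM in UBD and 55.3 CPM in control, a ratio of 1.45 (1.30 to 1.62), and Tm7sf2 at 3.66 CPM in UBD and 3.28 CPM in control, a ratio of 1.12 (0.684 to 1.83).

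Among the regulators, Stard4 was at 9.39 CPM in UBD and 3.58 CPM in control macrophages, a ratio of 2.62 (1.78 to 3.96). Srebf2 was at 33.1 CPM in UBD and 22.8 CPM in control, a ratio of 1.46 (1.23 to 1.73), and Insig1 at 33.2 CPM in UBD and 30.6 CPM in control, a ratio of 1.09 (0.929 to 1.27). Srebf1 was at 11.5 CPM in UBD and 11.8 CPM in control, a ratio of 0.976 (0.753 to 1.27) that also turned above 1 under both other scalings, and Aacs at 4.04 CPM in UBD and 5.56 CPM in control, a ratio of 0.725 (0.476 to 1.10).

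The fatty acid arm summed to 142 CPM in UBD and 84.1 CPM in control macrophages, and all 6 enzymes with at least 50 UMIs had a ratio above 1, with a median log2 ratio of 0.62. Elovl6 was at 4.69 CPM in UBD and 1.79 CPM in control, a ratio of 2.62 (1.5 to 4.78), beside 1.76 CPM in UBD and 1.20 CPM in control from tumour RNA. Scd2 was at 32.7 CPM in UBD and 14.2 CPM in control, a ratio of 2.30 (1.89 to 2.81), and Acly at 62.3 CPM in UBD and 39.3 CPM in control, a ratio of 1.58 (1.40 to 1.80). These 3 passed 1.5-fold. Fasn was at 11.9 CPM in UBD and 8.05 CPM in control, a ratio of 1.48 (1.11 to 1.98), Fads1 at 22.4 CPM in UBD and 15.2 CPM in control, a ratio of 1.48 (1.20 to 1.82), and Acaca at 5.35 CPM in UBD and 3.87 CPM in control, a ratio of 1.38 (0.903 to 2.13). Scd1 stood at 2.06 CPM in UBD and 1.39 CPM in control macrophages, beside 1.51 CPM in UBD and 0.93 CPM in control from tumour RNA, and Fads2 had 6 UBD and 2 control UMIs. The 4 division markers Top2a, Mki67, Pcna and Mcm5 summed to 366 CPM in UBD and 226 CPM in control macrophages. The markers of the osteoclast-like class summed to 251 CPM in UBD and 110 CPM in control macrophages, and neutrophil markers to 22.1 CPM in UBD and 53.7 CPM in control. The 9 stress genes summed to 3617 CPM in UBD and 6794 CPM in control, and the part of all these differences was not tested.

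Osteoclast-like cells, large cells with the bone-resorbing enzymes TRAP (Acp5) and cathepsin K (Ctsk), showed the highest median ratio of the sterol arm among the classes. The arm summed to 778 CPM in UBD and 337 CPM in control cells, with a median log2 ratio of 1.30 (0.78 to 1.56) over 17 enzymes, all above 1, beside -0.03 over 8355 genes. At least 1.5-fold higher were 14 of 17, beside 7.85% of all genes measured, and none was 1.5-fold lower, beside 12.2%. The control library holds fewer of these cells but not shallower ones, at a median of 12385 UMIs in UBD and 16613 in control. In control, 12 of the 17 had under 50 UMIs and reached the minimum through the UBD library. Sqle had the highest ratio of the arm, at 36.1 CPM in UBD and 8.73 CPM in control, which is 4.13 (2.47 to 7.47), and Ebp the lowest, at 69.7 CPM in UBD and 61.7 CPM in control, which is 1.13 (0.919 to 1.40). The squalene stretch had a median log2 ratio of 2 in these cells, with all 3 enzymes past 1.5-fold. In the fatty acid arm, 197 CPM in UBD against 85.5 CPM in control, the 4 enzymes that reached 50 UMIs passed, 3 of them with under 50 in control, from Acly at 98.2 CPM in UBD and 59.3 CPM in control, a ratio of 1.66 (1.35 to 2.05), to Scd2 at 71.4 CPM in UBD and 16.3 CPM in control, a ratio of 4.38 (3 to 6.65). Fasn, near equal in tumour cells, was at 13.6 CPM in UBD and 3.49 CPM in control osteoclast-like cells, on 122 UBD and 6 control UMIs, a ratio of 3.89 (1.74 to 10.8). The other 4 enzymes fell under the minimum, with Elovl6 on 31 UBD and 5 control UMIs at a ratio of 1.19, Fads1 on 9 UBD and 2 control UMIs at 0.861, and Scd1 and Fads2 on 11 and 3 UBD UMIs and none in control. Insig1, Srebf2 and Stard4 also passed 1.5-fold, with ratios of 2.24, 1.92 and 2.04. The control side rests on 110 cells, and neutrophil markers summed to 1.45 CPM in UBD and 65.7 CPM in control osteoclast-like cells. Endothelial markers summed to 1.67 CPM in UBD and 45.4 CPM in control, and division markers to 181 CPM in UBD and 289 CPM in control. The 9 stress genes went the other way, at 2752 CPM in UBD and 2106 CPM in control. The part of these differences was not tested. Cdkn2a stood at 2.19% of its tumour level in UBD and 2.27% in control.

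**Figure D3:**
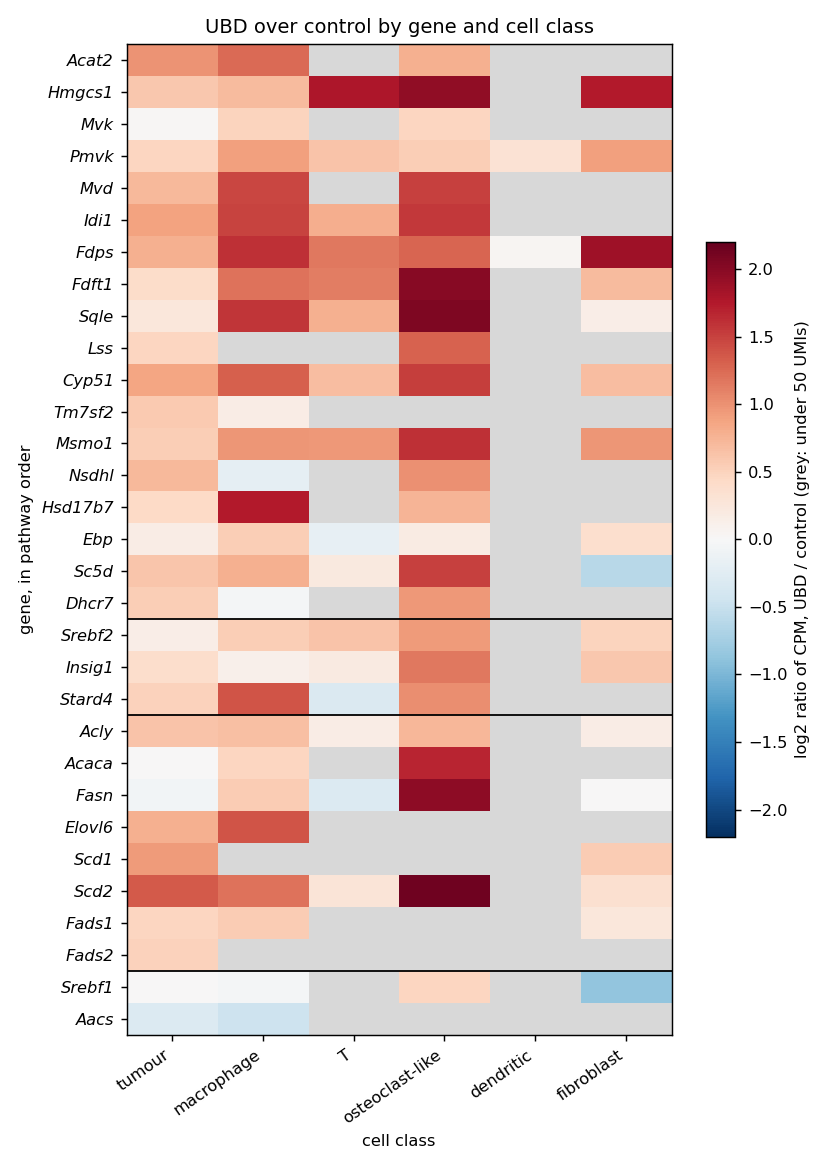
Log2 ratio of CPM, UBD over control, for each of the 31 genes (rows, in pathway order, with lines between the sterol enzymes, the sterol regulators, the fatty acid enzymes and the other genes) in each cell class (columns); red is higher in UBD, blue higher in control and grey under 50 UMIs. Red fills most of the sterol rows outside dendritic cells, while Fasn and Acaca are pale in tumour cells and dark in osteoclast-like cells.

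The remaining classes hold fewer UMIs, and fewer members reached the minimum of 50. In T cells 10 sterol enzymes reached 50 UMIs and 8 of them passed 1.5-fold, beside 5.74% of all genes measured, and none was 1.5-fold lower, beside 9%. Of the 10 measured, 8 had under 50 UMIs in the control library alone and 4 in the UBD library alone. Among those under the minimum, Acat2, Mvk, Mvd, Lss and Hsd17b7 had a ratio above 1, and Tm7sf2, Nsdhl and Dhcr7 below 1. The arm summed to 570 CPM in UBD and 365 CPM in control T cells, with a median log2 ratio of 0.79 (0.21 to 1.16), beside 0.00 over all genes. Hmgcs1 had the highest ratio, at 72.1 CPM in UBD and 21.1 CPM in control, which is 3.41 (2.28 to 5.22), and Ebp the lowest, at 86.2 CPM in UBD and 97.5 CPM in control, which is 0.884 (0.686 to 1.14). The 3 fatty acid enzymes with enough UMIs ran from Fasn at 17.2 CPM in UBD and 21.1 CPM in control, a ratio of 0.816 (0.455 to 1.44), to Scd2 at 37.6 CPM in UBD and 31.1 CPM in control, a ratio of 1.21 (0.798 to 1.84), and none passed. Cdkn2a stood at 6.11% of its tumour level in UBD and 4.5% in control T cells. Tumour RNA at that share would give Scd2 11.5 CPM in UBD and 3.33 CPM in control, and its part was not tested. The 3 NK markers summed to 160 CPM in UBD and 553 CPM in control T cells. Most of this was the granzyme gene Gzma, at 158 CPM in UBD and 542 CPM in control. Ncr1 had 2 UBD and 3 control UMIs and Klrb1c 1 UBD and 14 control UMIs, too few to tell whether this class holds NK cells. The part of this difference was not tested.

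In fibroblasts 9 sterol enzymes reached 50 UMIs, and 6 were at least 1.5-fold higher, beside 9.63% of all genes measured, and 1 at least 1.5-fold lower, beside 12.8%. Of the 9 measured, 8 had under 50 UMIs in the control library alone and 4 in the UBD library alone. The arm summed to 594 CPM in UBD and 313 CPM in control fibroblasts, with a median log2 ratio of 0.69 (0.15 to 1.75), beside 0.03 over all genes. Fdps had the highest ratio, at 92.2 CPM in UBD and 25.5 CPM in control, which is 3.62 (2.45 to 5.52), and Sc5d the lowest, at 18.8 CPM in UBD and 28.8 CPM in control, which is 0.655 (0.388 to 1.10). The 5 fatty acid enzymes lay between Fasn with a ratio of 1.01 (0.704 to 1.45) and Scd1 with 1.47 (0.897 to 2.46), so none passed. Srebf1 was at 14.4 CPM in UBD and 26.3 CPM in control fibroblasts, a ratio of 0.549 (0.307 to 0.968). Gm42418 stood at 2031 CPM in UBD and 9042 CPM in control fibroblasts, 4.45-fold lower in UBD, the 9 stress genes at 8282 CPM in UBD and 11901 CPM in control, and Cdkn2a at 4.68% of its tumour level in UBD and 6.62% in control, and their part was not tested.

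Dendritic cells were too few to describe gene by gene. The sterol arm summed to 656 CPM in UBD and 478 CPM in control cells, and 2 enzymes reached 50 UMIs, Pmvk with a ratio of 1.25 (0.806 to 1.92) and Fdps with 1.03 (0.537 to 1.90). Neither passed 1.5-fold, beside 6.5% of all genes measured that were higher and 21.9% that were lower.

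The 1759 UBD and 5234 control cells that met no class limit, shallow at medians of 2422 UMIs in UBD and 2411.5 in control, had the sterol arm at 519 CPM in UBD and 303 CPM in control. Of 17 enzymes measured there, 13 passed 1.5-fold, beside 16.2% of all genes, and the fatty acid arm stood at 254 CPM in UBD and 134 CPM in control with 5 of 7 past it. These cells also differed in markers of other cell types, with the 3 NK markers at 182 CPM in UBD and 889 CPM in control, the 3 neutrophil markers at 442 CPM in UBD and 1335 CPM in control, and the 6 osteoclast-like markers at 563 CPM in UBD and 113 CPM in control, and their part was not tested.

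Across the 6 classes, 24 of the 31 genes were at least 1.5-fold higher in UBD in 1 class or more, 19 in 2 or more and 13 in 3 or more. Of the 13550 genes measured in any class, 23.2% were so in 1 class or more, 3.73% in 2 or more and 0.768% in 3 or more. Among the genes measured in at least 3 classes, 13 of 25 members were so in 3 or more, beside 1.21% of 8604 genes. Of the 31 genes, 23 had a ratio above 1 in all classes where they reached 50 UMIs. Hmgcs1 and Cyp51 passed 1.5-fold in all 5 classes where they were measured. At least 1.5-fold lower in any class were Sc5d and Srebf1, both in fibroblasts. The classes of a library share 1 tumour suspension and are not replicates.

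The tumour class mixes cell states that take unlike shares of the 2 libraries, so the arms were also compared within states set by a single marker, which overlap. Cells with Cxcl10, an interferon-induced chemokine, made up 10.7% of UBD and 62.9% of control tumour cells. Within them the sterol arm was at 913 CPM in UBD and 603 CPM in control, with a median log2 ratio of 0.45 and 7 of 17 enzymes past 1.5-fold, beside 8.58% of all genes. Within cells with Top2a, a marker of division, it was at 1038 CPM in UBD and 658 CPM in control, with a median log2 ratio of 0.61 and 10 of 18 past, beside 8.86%. The arm was thus higher in UBD within dividing cells and within interferon-marked cells.

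Cells with H19, an imprinted RNA of embryonic tissue, numbered 592 in UBD and 42 in control, and their sterol arm was at 918 CPM in UBD and 506 CPM in control, a median log2 ratio of 0.97 with 11 of 17 past 1.5-fold, beside 18.2% of all genes. Cells with Krt18, an epithelial keratin, numbered 389 in UBD and 27 in control, with the arm at 1047 CPM in UBD and 624 CPM in control, a median of 0.87 and 11 of 17 past, beside 15.1%. Cells with Serpinb2, a plasminogen activator inhibitor, numbered 16 in UBD and 126 in control, with the arm at 937 CPM in UBD and 674 CPM in control, a median of 0.41 and 4 of 14 past, beside 10.6%. The 3 states are small on 1 side each. Tumour cells with none of the 5 markers, 2182 in UBD and 765 in control, had the arm at 874 CPM in UBD and 676 CPM in control, a median of 0.33 and 4 of 17 past, beside 7.42%.

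Scd2, Fdps, Fasn and Mvk were followed through the 3 states with the most cells. Scd2 was at 138 CPM in UBD and 58.3 CPM in control Cxcl10 cells, a ratio of 2.36 (2.2 to 2.54), at 186 CPM in UBD and 71.9 CPM in control in Top2a cells, a ratio of 2.59 (2.47 to 2.71), and at 196 CPM in UBD and 99.7 CPM in control in cells with no marker, a ratio of 1.96 (1.83 to 2.11). Fdps had ratios of 1.74, 1.83 and 1.38 in the same 3 states. Fasn had ratios of 0.863, 1.02 and 1.01, and Mvk 0.993, 0.934 and 1.21. Scd2 and Fdps lay above 1 and Fasn and Mvk within 1.5-fold of equal in each of the 3.

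**Figure D4:**
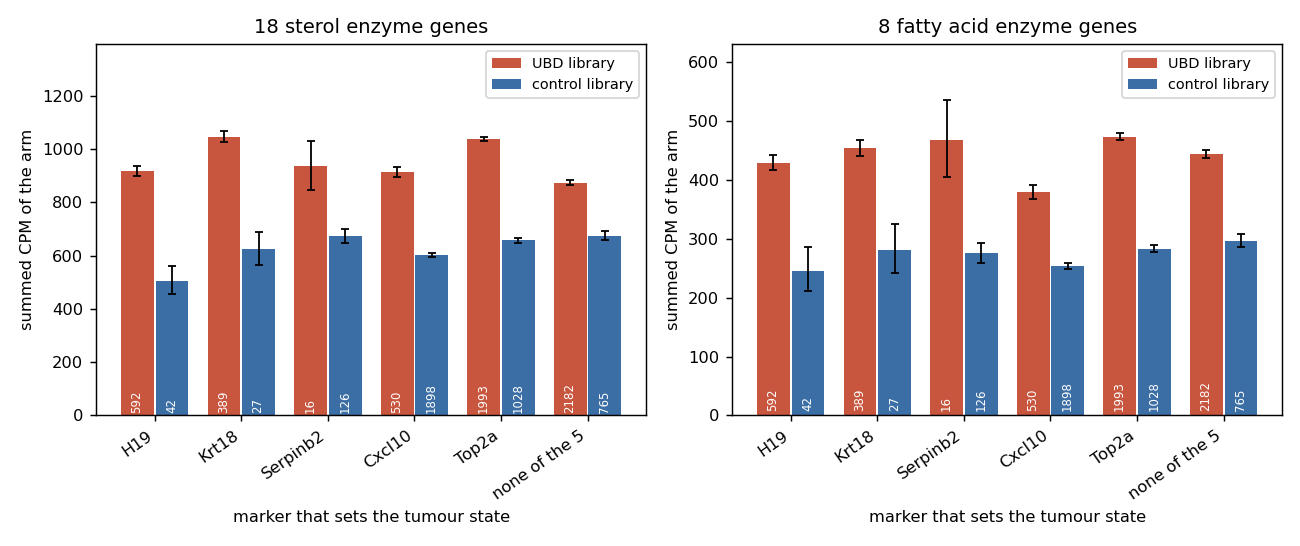
Summed CPM of the 18 sterol enzymes (left) and of the 8 fatty acid enzymes (right) within tumour cells grouped by marker, with the UBD library as the left bar (red), the control library as the right bar (blue), 95% counting intervals, and the number of cells written in each bar. The UBD bar is the higher in all 6 groups; the smallest sterol gap is in cells with none of the 5 markers, at 874 CPM in UBD and 676 CPM in control.

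Macrophages were split the same way. Those with Cd74, the MHC class II chaperone, were 68.9% of UBD and 51.4% of control macrophages, and their sterol arm was at 394 CPM in UBD and 212 CPM in control, a median log2 ratio of 1.05 with 11 of 15 past 1.5-fold, beside 10.6% of all genes. Those with Spp1, which encodes osteopontin, had it at 367 CPM in UBD and 205 CPM in control, a median of 0.94 with 12 of 16 past, beside 9.03%. Dividing macrophages with Top2a were 258 in UBD, 14.8% of the class, and 88 in control, 4.02% of the class. Their sterol arm was at 356 CPM in UBD and 232 CPM in control, a median of 0.73 with 5 of 7 past, beside 8.93%. Macrophages with Ly6c2, a marker of recent monocytes, were 21 in UBD and 610 in control, and their sterol arm was at 365 CPM in UBD and 195 CPM in control. Of the 3 enzymes that reached 50 UMIs there, 1 was at least 1.5-fold higher, beside 18.1% of all genes, and 1 at least 1.5-fold lower, beside 30.7%, with a median log2 ratio of 0.23. Macrophages with none of the 5 markers, 104 in UBD and 514 in control, had the arm at 304 CPM in UBD and 178 CPM in control, and neither of the 2 enzymes measured passed 1.5-fold, beside 12.3%. No enzyme reached 50 UMIs in the 59 UBD and 10 control macrophages with Lyve1, a marker of resident cells. The summed sterol arm was thus higher in UBD in the Cd74, Spp1, Top2a and Ly6c2 states and in cells with no marker. The few single sterol enzymes measured with Ly6c2 went both ways. The summed fatty acid arm was higher in UBD in the same groups. With Top2a it was at 135 CPM in UBD and 111 CPM in control. Its median log2 ratio there was 0.04, with 1 of 3 past 1.5-fold, beside 8.93%. With Lyve1 it was lower, at 135 CPM in UBD and 196 CPM in control, on 54 UBD and 13 control UMIs.

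Genes of cholesterol handling outside the 31, from a list of 25, were split in direction. In tumour cells 24 of them were measured and their median log2 ratio was 0.00. At least 1.5-fold higher were 2, Lipa among them, beside 8.69% of all genes measured, and 3 were at least 1.5-fold lower (Scap, Ch25h and Abcg1), a smaller share than the 19.3% of all genes. Lipa, the lysosomal lipase that frees cholesterol from esters, was at 42.8 CPM in UBD and 23.1 CPM in control tumour cells, a ratio of 1.85 (1.73 to 1.97). In the other direction, Scap, the escort of SREBP, was at 9.04 CPM in UBD and 14.1 CPM in control tumour cells, 1.56-fold lower (1.41 to 1.72), and Ch25h, which makes a hydroxylated sterol and is induced by interferon, was at 3.09 CPM in UBD and 5.72 CPM in control, 1.85-fold lower (1.57 to 2.18).

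In macrophages 24 were measured, 1 was at least 1.5-fold higher, beside 10.3% of all genes, and 3 were lower, a smaller share than the 19.1% of all genes. Their median log2 ratio was -0.14. Abcg1, a pump that exports cholesterol, was at 28.8 CPM in UBD and 95.1 CPM in control macrophages, 3.30-fold lower (2.90 to 3.77). Ch25h was at 13.7 CPM in UBD and 58.3 CPM in control, 4.26-fold lower (3.54 to 5.14), and Mylip, a ubiquitin ligase of cholesterol uptake, at 13.3 CPM in UBD and 26.7 CPM in control, 2.01-fold lower (1.63 to 2.48). Abcg1 and Mylip are known targets of the oxysterol receptors LXR, whereas Abca1, another, was at 165 CPM in UBD and 179 CPM in control, a ratio of 0.923 (0.863 to 0.986). In osteoclast-like cells, 3 of 22 measured were at least 1.5-fold higher, Mbtps2 among them, beside 7.85% of all genes, and 5 were lower (Lipa, Soat1, Nr1h3, Abcg1 and Apoe), beside 12.2%. Abcg1 was 2.54-fold lower (1.87 to 3.41) and Apoe, the lipoprotein that carries exported cholesterol, 3.31-fold lower (3.15 to 3.49).

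Of 27 genes of fatty acid handling, 25 were measured in tumour cells, where 7 were at least 1.5-fold higher, beside 8.69% of all genes, and 5 lower, a share near the 19.3% of all genes, and the median log2 ratio was 0.26. Slc25a1, the citrate carrier that feeds Acly, was at 46.9 CPM in UBD and 30.7 CPM in control tumour cells, a ratio of 1.53 (1.44 to 1.62), and Hacd3, a dehydratase of the elongation cycle, at 13.8 CPM in UBD and 8.99 CPM in control, a ratio of 1.54 (1.39 to 1.71). Acsl4, which activates long polyunsaturated fatty acids, was at 55.7 CPM in UBD and 35 CPM in control, a ratio of 1.59 (1.51 to 1.68). These stand beside the elongation and desaturation enzymes that differed above. Acadm, which burns medium-chain fatty acids, was at 61.3 CPM in UBD and 37.7 CPM in control, a ratio of 1.63 (1.55 to 1.71), while Cpt1a, the gate of mitochondrial fat oxidation, was at 3.20 CPM in UBD and 8.99 CPM in control, 2.81-fold lower (2.43 to 3.25). Dgat2 and Lpl were higher, with ratios of 1.84 and 1.61, and Mlxip and Fabp4 were 1.72-fold and 5.67-fold lower. Elovl7, Acacb and Cd36, on under 200 UMIs each, make up the rest. In macrophages 3 of 20 measured were at least 1.5-fold higher (Lpl, Acadm and Tecr), beside 10.3% of all genes, and 3 lower, beside 19.1%, with a median log2 ratio of 0.10, so neither count stood far from the share over all genes. Plin2, the coat of lipid droplets, was at 229 CPM in UBD and 635 CPM in control macrophages, 2.77-fold lower (2.65 to 2.91), Dgat1, which makes triglyceride, at 15.8 CPM in UBD and 34.4 CPM in control, 2.18-fold lower (1.81 to 2.64), and Cpt1a at 12.9 CPM in UBD and 19.97 CPM in control, 1.55-fold lower (1.24 to 1.94). Fabp4 and Lpl are also made by macrophages and adipocytes, and the macrophage markers summed to 31.3 CPM in UBD and 66.3 CPM in control tumour cells, whose part was not tested.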

How the data were processed

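The authors deposited, for each library, a matrix of raw UMI counts with genes as rows and barcodes as columns. The submitters' processing notes name Cell Ranger, STAR and mm10, and per the file headers the software was version 3.1.0. No source states the annotation used for counting. The genes, the gene lists and the class markers were chosen with earlier results of these data known. Barcodes needed at least 200 genes, 500 UMIs and at most 20% mitochondrial UMIs, which 13619 of 14158 UBD and 14353 of 14890 control barcodes met. Scrublet in scanpy (expected rate 0.1) then marked 562 UBD cells (4.13%) and 530 control cells (3.69%) as doublets, and these were removed.

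A cell entered a class with at least 3 UMIs and 2 per 10000 of Cdkn2a, C1qa or Dcn, or of both Acp5 and Ctsk, or with at least 1 UMI and 1 per 10000 of Cd3e or Flt3. Cells that met the limits of several classes were left out, except that Acp5 with Ctsk outranked C1qa. UMIs were summed per class and library and scaled to CPM, with exact Poisson intervals, and ratios have exact conditional binomial intervals, all at 95%. An arm's median covers members with at least 50 UMIs over both libraries; its interval is the order-statistic interval over members, or their range below 6 members. No test was possible, since each group is 1 library. All 31 genes are named in tumour cells and macrophages, the highest and the lowest elsewhere, and other pathway genes past 1.5-fold with at least 200 UMIs; some of these other genes are not reported here. The calculation was tested on simulated data. Gene coordinates are from GENCODE vM21, which held 31011 of the 31053 gene IDs. Python 3.11.15, numpy 2.4.6, scipy 1.17.1, pandas 2.3.3, scanpy 1.11.5, anndata 0.12.19, matplotlib 3.10.9 and edgeR 4.0.16 (TMM sizes only, as an alternative scaling) were used.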

Additional observations from a re-analysis of the deposited data

How the results depend on the processing

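No paired analysis was possible because each group holds 1 library, and for the same reason no replicate could be left out. Under 11 other settings and 1 more chosen after seeing the data (Cdkn2a outranking Dcn), the sterol arm's median log2 ratio ran from 0.44 to 0.74 in tumour cells, from 0.58 to 1.09 in macrophages and from 1.17 to 1.52 in osteoclast-like cells, and the fatty acid arm's from 0.51 to 0.93, from 0.48 to 0.75 and from 0.86 to 1.98. With Cdkn2a outranking Dcn, the tumour medians were 0.57 and 0.51. With any UMI of a marker sufficing for a class, the sterol median was 0.74 in tumour cells and 0.69 in dendritic cells, the fatty acid median was -0.34 in T cells and 0.98 in fibroblasts, and 5 fatty acid enzymes were past 1.5-fold in macrophages. That count was also 5 with edgeR's TMM sizes and with median-ratio size factors, since Fasn and Fads1 lie at the limit. At 200 UMIs per gene, 7 sterol enzymes stayed in the macrophage count, and the T cell sterol median turned to -0.18, where Ebp alone was measured. The T cell fatty acid median was 0.37 under the strict class rule and 0.70 with no minimum. In dendritic cells the sterol median was 0.40 with cells weighted equally and 0.34 with no minimum. Without cells holding Top2a or Mki67, the tumour log2 ratio was -0.10 for Sqle and -0.08 for Srebf2; the causes were not tested. Over the 10 of these settings other than the 2 UMI minimums, which leave single genes as they are, there were 310 single-gene values per class. The sign of the reported value held in 298 in tumour cells and 299 in macrophages, and 0 of the genes past 1.5-fold turned, but 78 in tumour cells and 14 in macrophages moved outside the reported counting interval. Depth limits the rare genes Lss, Tm7sf2, Fads2 and, outside tumour cells, Scd1, and the classes with few control or UBD cells.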
